A study of Mus musculus with 12 samples.

Results

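The tumour suppressor p53 and 9 of its direct target genes were followed in mouse embryonic fibroblasts (MEFs) exposed to double-stranded RNA. The 10 genes were chosen by symbol (Trp53, Mdm2, Cdkn1a, Plk2, Aen, Phlda3, Zmat3, Ccng1, Sesn1 and Trp53inp1), and their probes were found through the RefSeq transcript that the array files give for each probe. They were read by 13 probes, and all 10 were among the 15445 genes tested; each of the 13 probes was well above background on all 12 arrays. RNA was hybridised to single-colour Agilent arrays, 3 per group. The groups were GADD34ΔC/ΔC MEFs (ΔC) lipofected with the synthetic double-stranded RNA poly(I:C) (high molecular weight, 2.5 µg/ml, 6 h), untreated ΔC MEFs, wild-type (WT) MEFs lipofected in the same way, and untreated WT MEFs. GADD34 is the protein of Ppp1r15a, a phosphatase subunit that reverses the phosphorylation of the translation factor eIF2α, and ΔC is the labels' name for its mutant allele. The labels describe 3 separate experiments, give no treatment with the transfection lipid alone, and name neither the number of embryos behind each genotype nor the passage of the cells. The RNA came from the supernatant of a mild detergent lysate.

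p53 is a transcription factor that cells keep scarce through Mdm2, a ubiquitin ligase whose gene p53 itself activates. Damage and other stresses release p53 from Mdm2, and it then switches on genes that stop the cell cycle (Cdkn1a, which encodes p21), repair or limit damage, and promote cell death. Because p53 is controlled mainly through its protein, the mRNAs of its targets can move while Trp53 mRNA does not, and many of these targets also answer to other transcription factors. Poly(I:C) stands for viral double-stranded RNA, which cells sense in the cytosol and answer with interferon and with a stress response on eIF2α.

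The stretches of promoter that hold the letters bound by p53 are shown because the members differ in them. The p53 consensus decamer, of which a full p53 element carries a pair, was searched on both strands of the RefSeq promoter windows (build GRCm38.p6, 250 bases before to 50 after a start). Such windows were given for 8 of the 10 members, 11 windows in all, and none was used for Zmat3 or Trp53inp1. The decamer was present in 7 of the 11 windows, belonging to 6 of the 8 members, against 8.36% of all 32851 windows. The windows of Aen overlap and hold the same decamer, which is thus counted in each. A second decamer with at most 1 mismatch lay within 13 bases of the first at Ccng1 and Cdkn1a, against 1.09% of all windows. The members were chosen as p53 and its direct targets, so these shares are a description and not a test. Below, 60-base stretches around the decamer are given in the gene's own direction, with the decamer in capitals.
Mdm2, chr10:117710910-117710969, minus strand: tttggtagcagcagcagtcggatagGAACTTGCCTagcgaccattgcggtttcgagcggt
Trp53, chr11:69580259-69580318, plus strand: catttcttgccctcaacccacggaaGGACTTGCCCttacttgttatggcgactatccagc
Aen, chr7:78895912-78895971, plus strand: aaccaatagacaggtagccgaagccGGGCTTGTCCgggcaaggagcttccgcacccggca
Ccng1, chr11:40755437-40755496, minus strand: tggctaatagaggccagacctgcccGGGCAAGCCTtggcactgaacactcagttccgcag
Sesn1, chr10:41887241-41887300, plus strand: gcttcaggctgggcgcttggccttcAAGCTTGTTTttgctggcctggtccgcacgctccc

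Cdkn1a has windows at a pair of starts 2790 bases apart on chromosome 17, and both are printed whole because only the upstream one held decamers, again in capitals. The decamer nearer to the gene lay 2841 bases before the second start.
Cdkn1a, upstream start, chr17:29090729-29091028, plus strand: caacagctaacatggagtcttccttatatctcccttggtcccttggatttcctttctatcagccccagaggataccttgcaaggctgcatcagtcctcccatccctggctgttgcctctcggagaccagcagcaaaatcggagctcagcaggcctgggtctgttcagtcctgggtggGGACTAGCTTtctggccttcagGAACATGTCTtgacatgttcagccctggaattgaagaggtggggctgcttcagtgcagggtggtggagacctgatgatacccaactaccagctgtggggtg
Cdkn1a, downstream start, chr17:29093519-29093818, plus strand: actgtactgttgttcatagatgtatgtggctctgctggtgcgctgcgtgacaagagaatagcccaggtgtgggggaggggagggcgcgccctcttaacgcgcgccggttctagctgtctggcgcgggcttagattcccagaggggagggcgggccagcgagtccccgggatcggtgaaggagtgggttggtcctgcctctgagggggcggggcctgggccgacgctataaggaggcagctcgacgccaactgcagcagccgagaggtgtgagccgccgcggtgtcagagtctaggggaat

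Plk2 and Phlda3 were the members whose windows held no decamer. The Plk2 window is shown because it alone among the 11 held TGACGTCA, the letters bound by the CREB and ATF family, which reads the same on both strands and stood in 1.79% of all windows. It is in capitals below.
Plk2, chr13:110394794-110395093, plus strand: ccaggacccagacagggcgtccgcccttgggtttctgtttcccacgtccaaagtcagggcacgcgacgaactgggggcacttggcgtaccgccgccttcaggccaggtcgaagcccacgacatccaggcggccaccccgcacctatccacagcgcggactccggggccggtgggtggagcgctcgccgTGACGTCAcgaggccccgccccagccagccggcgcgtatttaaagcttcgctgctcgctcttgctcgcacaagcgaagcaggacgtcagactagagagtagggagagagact
On either strand, the interferon-type motif, a pair of GAAA with any 2 bases between, was found in 1 of the 11 windows, that of Plk2 (3.44% of all windows), and the NF-kB consensus in 1, that of Trp53 (8.46% of all windows). A match describes the letters of a window and does not show that a factor bound there.

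The mutant gene separated the genotypes on every array. Levels below are log2 intensities minus the 75th percentile of the array, so a value is relative to the brighter probes of the same array. Ppp1r15a read -4.12, -8.14 and -7.20 in poly(I:C)-treated ΔC cells and -7.22, -8.30 and -5.75 in untreated ΔC cells, where it was well above background on 1 and on none of the 3 arrays. It read 5.79, 5.83 and 5.81 in poly(I:C)-treated WT cells and 2.65, 2.62 and 3.36 in untreated WT cells. In untreated cells it was at least 486-fold lower in ΔC than in WT cells (limma, adjusted p = 6.15e-05), a lower bound because the ΔC arrays did not measure it. After poly(I:C) all 3 ΔC arrays lay below all 3 WT arrays (adjusted p = 2.02e-05), and no fold is given because only 1 of those ΔC arrays measured the gene. Where on the gene the probe lies relative to the mutation is not given in the sources used here.

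Markers of the labelled cell type were present. All 8 fibroblast markers were well above background on every array, except Thy1, which was so on 1 of the 3 poly(I:C)-treated WT arrays. The log2 of their mean level was 5.27 to 6.18 in poly(I:C)-treated ΔC, 5.20 to 6.18 in untreated ΔC, 6.13 to 6.36 in poly(I:C)-treated WT and 6.27 to 6.46 in untreated WT cells. Single fibroblast markers differed between the genotypes in both directions. Col3a1 had mean levels of -0.53 with poly(I:C) and -0.16 without in ΔC cells, against 3.03 and 3.49 in WT cells. Thy1 had -3.39 and -3.72 in ΔC cells, against -5.61 and -5.09 in WT cells. Arrays of a group could also differ, as Col1a2 read 3.07, 0.86 and 6.36 in poly(I:C)-treated ΔC cells. The 4 epithelial markers did not run one way. Epcam and Cdh1 were well above background on all ΔC arrays and on no WT array, and Krt18 on all 12 arrays. Mean levels of Krt18 were 0.55 with poly(I:C) and 0.83 without in ΔC cells, against -0.61 and -0.79 in WT cells. The WT arrays numbered 3 read 1.78 and 2.09 for it, above all ΔC arrays, and the other WT arrays read -2.35 to -1.60. Krt8 was well above background on 2 of 3 poly(I:C)-treated and 1 of 3 untreated ΔC arrays and on all WT arrays, with mean levels of -5.23 and -5.74 in ΔC cells and -3.91 and -3.82 in WT cells. For the 4 together the log2 of the mean level was -1.72 to -0.47 in poly(I:C)-treated ΔC, -1.56 to -0.19 in untreated ΔC, -3.39 to -0.19 in poly(I:C)-treated WT and -3.76 to 0.12 in untreated WT cells. The 4 leukocyte markers that could be named were all well above background by the brightest probe of each gene. The log2 of their mean level was 1.23 to 1.53, 1.13 to 1.49, 1.59 to 1.81 and 2.05 to 2.37 in the same order. The brightest Itgam probe had group means of 2.86 to 3.71, whereas the other Itgam probes had -3.66 to -2.46. Ptprc had group means of -5.16 to -4.42, and a second Adgre1 probe was well above background on no array. Of 4 endothelial markers, Cdh5 and Tek were above background on no array. The log2 of the mean level of all 4 was 1.63 to 2.16, 1.63 to 1.98, 1.97 to 2.02 and 1.92 to 2.47. The Kdr probe used in it had group means of 3.75 to 4.25, whereas another Kdr probe had -4.23 to -0.32. The part of all these markers in the results below was not tested, and in these bulk samples fewer cells of a type and less RNA per cell cannot be told apart. The 4 arrays numbered 3 stood apart from the other 8 on the third principal component (8.52% of the variance), at -45.5 to -24.3 against 2.08 to 31, so the members' changes with poly(I:C) and those of list genes with printed levels are also given without them. That fit was added after seeing the data and keeps 2 arrays per group.

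None of the 10 members passed the test after poly(I:C) in ΔC cells. In WT cells 3 passed it: Cdkn1a rose 3.31-fold, Plk2 rose 2.25-fold and Zmat3 fell 1.85-fold, and in ΔC cells these 3 had the same signs with smaller values. No member passed the test between the genotypes, untreated or treated, and for none did the response differ between the genotypes by the test of that difference. Trp53 mRNA itself had the smallest value of the 10 in WT cells. A gene is called when limma's adjusted p, over all 15445 genes, is under 0.05. By that rule 1.84% of all genes were called for the response in ΔC cells (1.82% rose and 0.0194% fell) and 6.77% for the response in WT cells (5.24% rose and 1.53% fell). Without the arrays numbered 3 the shares of all genes called were larger, 13.1% in ΔC and 34.1% in WT cells.

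**Figure D1:**
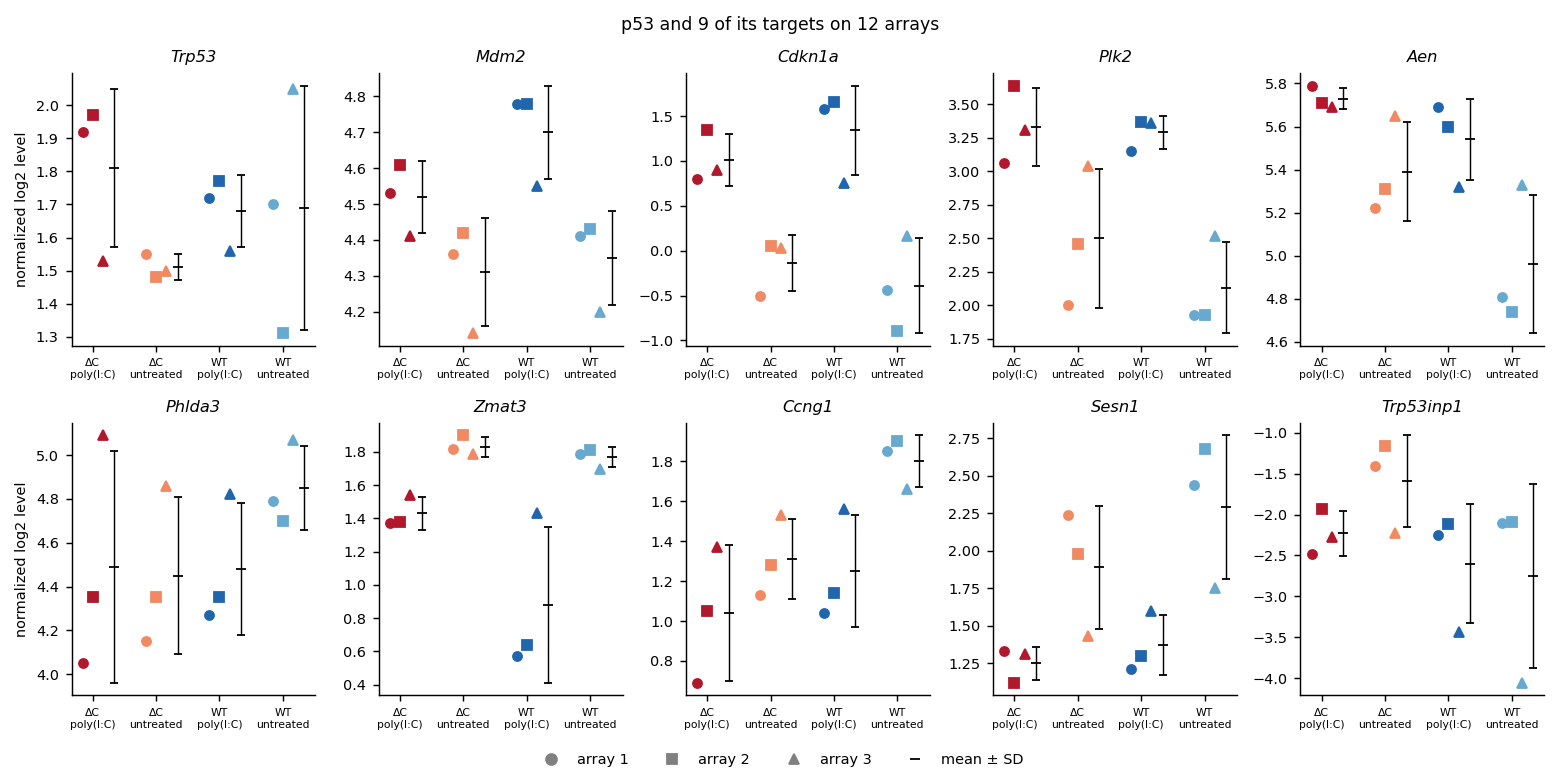
Normalized log2 level of p53 and 9 targets (y axis) on each of the 12 arrays (3 symbols for arrays 1, 2 and 3) in the 4 groups along the x axis, with the mean and SD of 3 arrays in black. The y axes differ between panels, and Cdkn1a, Plk2, Zmat3 and Sesn1 show treated arrays apart from untreated ones in both genotypes.

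Trp53, the gene of p53 itself, had overlapping levels with and without poly(I:C). Its levels were 1.92, 1.97 and 1.53 in poly(I:C)-treated ΔC cells and 1.55, 1.48 and 1.50 in untreated ΔC cells. In WT cells they were 1.72, 1.77 and 1.56 with poly(I:C) and 1.70, 1.31 and 2.05 without. The groups overlapped in both genotypes, and the 2 extreme values of all 12 arrays, 1.31 and 2.05, were both from untreated WT cells. The change with poly(I:C) was 0.30 ± 0.18 on the log2 scale in ΔC cells (SE, limma adjusted p = 0.605) and -0.01 ± 0.18 in WT cells (adjusted p = 0.988), and without the arrays numbered 3 they were 0.43 (adjusted p = 0.0984) and 0.24 (adjusted p = 0.231).

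Mdm2, the ubiquitin ligase that marks p53 for destruction and is itself a p53 target, differed by little but evenly. It read 4.53, 4.61 and 4.41 in poly(I:C)-treated ΔC cells and 4.36, 4.42 and 4.14 in untreated ΔC cells. The WT arrays read 4.78, 4.78 and 4.55 with poly(I:C), against 4.41, 4.43 and 4.20 without. The ΔC groups overlapped, whereas every treated WT array lay above every untreated one. By array number the differences were 0.17, 0.19 and 0.27 in ΔC cells and 0.37, 0.34 and 0.35 in WT cells. The ΔC change was 0.21 ± 0.12 (limma adjusted p = 0.585), and 0.18 without the arrays numbered 3 (adjusted p = 0.208). The WT change of 0.35 ± 0.12 did not pass the test (adjusted p = 0.112), but passed it with the array number as a replicate block (adjusted p = 0.0401) and without the arrays numbered 3 (0.36, adjusted p = 0.0219).

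Cdkn1a, whose protein p21 inhibits cyclin-dependent kinases, showed the largest rise among the members in WT cells. Its 10-spot probe read 0.80, 1.34 and 0.90 in poly(I:C)-treated ΔC cells, against -0.50, 0.05 and 0.03 in untreated ΔC cells. WT arrays gave 1.58, 1.66 and 0.76 with poly(I:C), against -0.44, -0.90 and 0.16 without. No treated array overlapped an untreated one in either genotype, and the smallest change by array number was that of number 3, at 0.87 in ΔC and 0.60 in WT cells. The change was 1.15 ± 0.32 on the log2 scale in ΔC cells, which did not pass the test (SE, limma adjusted p = 0.145), and 1.73 ± 0.32 in WT cells (adjusted p = 0.0101). Without the arrays numbered 3 it was 1.29 in ΔC cells, where it then passed the test (adjusted p = 0.0323), and 2.29 in WT cells (adjusted p = 0.00228). The WT call was lost without treated WT array 1 or 2 (adjusted p = 0.0575 and 0.0564) and with the slide as a block (2.17, adjusted p = 0.0813), while the difference between the arrays that shared slide 2, 1 of each WT group, was 2.56, and that within scan day 1, with 2 treated and 1 untreated array, was 2.52.

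The repeated spots of Cdkn1a give the size of the measuring error within an array. Over its 10 spots the SD was 0.02 to 0.08 on each array, and the highest and lowest spot of an array were 0.07 to 0.25 apart. A second probe, made for the transcript NM_001111099, read -3.50, -4.76 and -4.01 in treated and -5.54, -4.76 and -4.14 in untreated ΔC cells. On WT arrays it gave -4.50, -5.03 and -4.47 with poly(I:C), against -4.98, -5.21 and -4.80 without. Its changes, 0.73 ± 0.38 in ΔC cells (limma adjusted p = 0.595) and 0.33 ± 0.38 in WT cells (adjusted p = 0.619), did not pass the test. Levels of different probes are not comparable with each other.

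**Figure D2:**
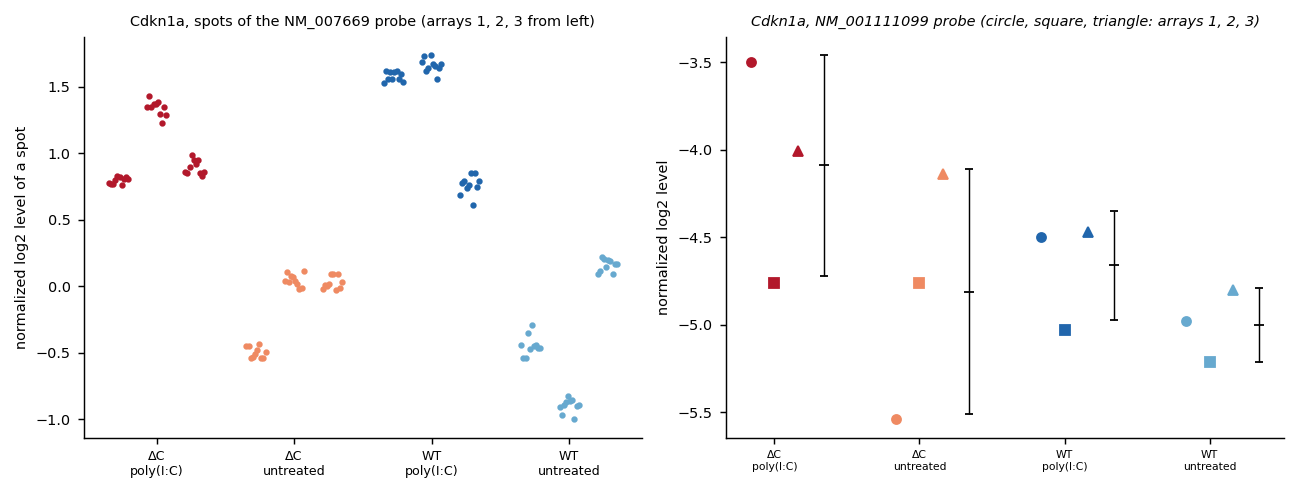
Left, normalized log2 level (y axis) of each of the 10 spots of the Cdkn1a probe used for the gene on the 12 arrays, in the 4 groups along the x axis. Right, the second probe on the same arrays with the mean and SD of 3 arrays; spots of an array lie within 0.25 of each other on the left, and treated and untreated groups overlap on the right.

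Plk2, a polo-like kinase that p53 induces and that acts on centrioles and stress signals, rose alongside Cdkn1a in WT cells. Its levels were 3.06, 3.64 and 3.31 in poly(I:C)-treated ΔC cells, against 2.00, 2.46 and 3.04 in untreated ΔC cells. In WT cells they were 3.15, 3.37 and 3.36 with poly(I:C), against 1.93, 1.93 and 2.52 without. Treated and untreated arrays did not overlap in either genotype, although ΔC treated array 1 and untreated array 3 were nearly level. The change was 0.83 ± 0.27 in ΔC cells (limma adjusted p = 0.255) and 1.17 ± 0.27 in WT cells (adjusted p = 0.0293). Without the arrays numbered 3 the values were 1.12 in ΔC (adjusted p = 0.0329) and 1.33 in WT cells (adjusted p = 0.00895), both past the threshold. The WT call was lost without untreated WT array 1 or 2 (adjusted p = 0.119 and 0.108), without treated WT array 1 or 2 (0.0871 and 0.121), and when slide (0.143) or scan day (0.06) was a block. Within slide 2 the difference was 1.44, and within scan day 1 it was 1.33.

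Aen, a nuclease linked to p53-driven cell death, gave no call with all arrays. It read 5.79, 5.71 and 5.69 in poly(I:C)-treated ΔC cells and 5.22, 5.31 and 5.65 in untreated ΔC cells. In WT cells it read 5.69, 5.60 and 5.32 with poly(I:C), and 4.81, 4.74 and 5.33 without. Untreated array 3 was the highest untreated array in each genotype, and in WT cells it stood level with treated array 3, so that only the ΔC groups did not overlap. Neither change passed the test, at 0.34 ± 0.18 in ΔC cells (limma adjusted p = 0.536) and 0.58 ± 0.18 in WT cells (adjusted p = 0.0805). Without the arrays numbered 3 both did, at 0.49 (adjusted p = 0.0231) and 0.87 (adjusted p = 0.00141).

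Phlda3, a pleckstrin-domain protein that restrains the survival kinase Akt, did not separate treated from untreated cells. Its levels were 4.05, 4.35 and 5.09 in poly(I:C)-treated and 4.15, 4.35 and 4.86 in untreated ΔC cells. In WT cells they were 4.27, 4.35 and 4.82 with poly(I:C) and 4.79, 4.70 and 5.07 without. Array 3 was the highest of its group in all 4 groups. The change was 0.04 ± 0.28 (limma adjusted p = 0.971) in ΔC cells and -0.37 ± 0.28 in WT cells (limma adjusted p = 0.412). With array 3 of each group left out it was -0.05 in ΔC (adjusted p = 0.836) and -0.44 in WT cells (adjusted p = 0.0508), and Phlda3 was then lower in untreated ΔC than in untreated WT cells (-0.50, adjusted p = 0.0319).

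Zmat3, a zinc-finger protein that binds RNA, was the only member whose fall in WT cells passed the test. Its levels were 1.37, 1.38 and 1.54 in poly(I:C)-treated ΔC cells, against 1.82, 1.90 and 1.79 in untreated ΔC cells. In WT cells they were 0.57, 0.64 and 1.43 with poly(I:C), against 1.79, 1.81 and 1.70 without. The 6 untreated arrays lay between 1.70 and 1.90, and every treated array lay below them, with treated WT arrays 1 and 2 the lowest. The change was -0.41 ± 0.20 in ΔC cells (limma adjusted p = 0.492) and -0.88 ± 0.20 in WT cells (adjusted p = 0.0251). Without the arrays numbered 3 the values were -0.49 in ΔC (adjusted p = 0.0183) and -1.19 in WT cells (adjusted p = 0.000351). The WT call was lost without untreated WT array 1 or 2 (adjusted p = 0.0926 and 0.0868), without treated WT array 1 or 2 (0.123 and 0.125), and when slide (0.18) or scan day (0.0555) was a block, where the within-batch values were -1.17 and -1.20. It was also lost when arrays were scaled by the median (-0.81, adjusted p = 0.0788).

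Ccng1, an atypical cyclin (cyclin G1) that acts with a phosphatase on Mdm2, had lower mean levels with poly(I:C). It read 0.69, 1.05 and 1.37 in treated and 1.13, 1.28 and 1.53 in untreated ΔC cells. WT levels were 1.04, 1.14 and 1.56 with poly(I:C), against 1.85, 1.90 and 1.66 without. The ΔC groups overlapped, and the WT groups did not. The ΔC change was -0.28 ± 0.20 (limma adjusted p = 0.661), and -0.33 without the arrays numbered 3 (adjusted p = 0.174). The WT change of -0.56 ± 0.20 missed the threshold (adjusted p = 0.116), but passed it without those arrays (-0.79, adjusted p = 0.00929).

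Sesn1, a sestrin that restrains the growth kinase mTORC1 and limits oxidative damage, had the most negative value of the 10 in WT cells. Its levels were 1.33, 1.12 and 1.31 in poly(I:C)-treated ΔC cells, against 2.24, 1.98 and 1.43 in untreated ΔC cells. In WT cells they were 1.21, 1.30 and 1.60 with poly(I:C), against 2.44, 2.68 and 1.75 without. Treated arrays lay below untreated ones in both genotypes, but array pair 3 differed by only -0.13 in ΔC and -0.15 in WT cells, against -0.86 to -1.37 for the other 4 pairs. With all arrays the change passed the test in neither genotype, at -0.64 ± 0.26 in ΔC (limma adjusted p = 0.417) and -0.92 ± 0.26 in WT cells (adjusted p = 0.0619). Without the arrays numbered 3 it passed in both, at -0.89 (adjusted p = 0.0158) and -1.30 (adjusted p = 0.00178).

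Trp53inp1, a stress protein of the nucleus and of autophagy that promotes p53 activity, was the most variable member, with a range of 2.9 over the 12 arrays. The probe used for it read -2.48, -1.93 and -2.27 in poly(I:C)-treated ΔC cells and -1.40, -1.16 and -2.23 in untreated ΔC cells. In WT cells it read -2.25, -2.11 and -3.44 with poly(I:C) and -2.10, -2.09 and -4.06 without. WT arrays numbered 3 were lower than the other WT arrays, and the groups overlapped in both genotypes. The changes were -0.63 ± 0.54 in ΔC (limma adjusted p = 0.721) and 0.15 ± 0.54 in WT cells (adjusted p = 0.881), the first of which was -0.93 and past the threshold without the arrays numbered 3 (adjusted p = 0.0328), where the WT value was -0.09 (adjusted p = 0.758). A second probe of the gene spanned only -3.75 to -3.04 over the 12 arrays. With all arrays it gave -0.15 ± 0.18 in ΔC cells (limma adjusted p = 0.857), a smaller fall than the first probe. In WT cells it gave -0.33 ± 0.18, so there the probes differed in sign.

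**Figure D3:**
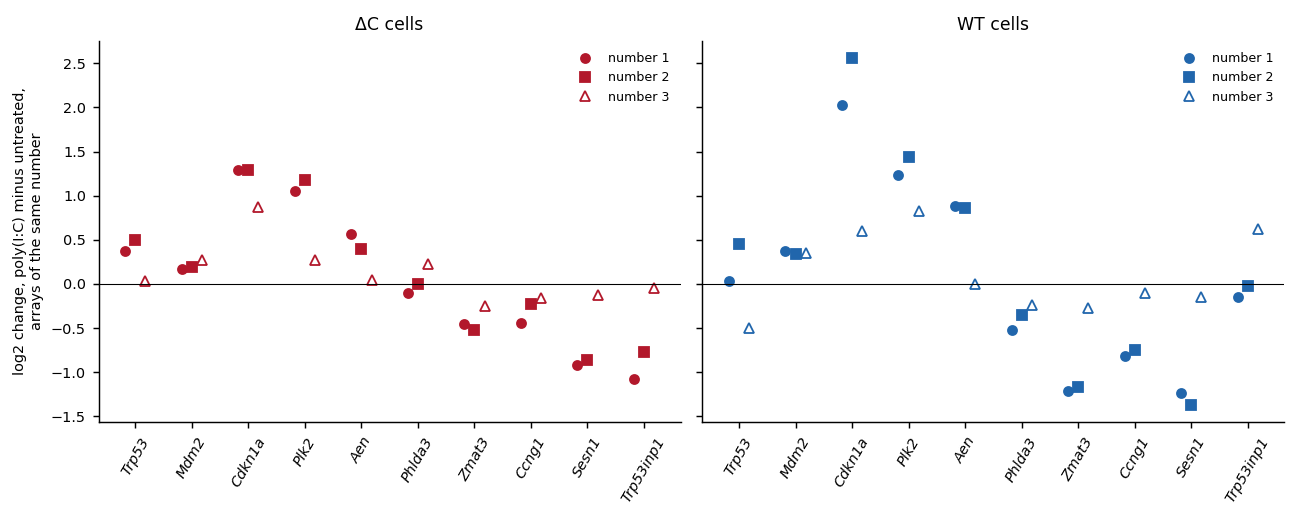
Log2 change with poly(I:C) (y axis, treated minus untreated array of the same number) for the 10 genes along the x axis, in ΔC cells (left) and WT cells (right), with 1 symbol per array number. Cdkn1a and Plk2 lie above 0 and Zmat3, Sesn1 and Ccng1 below 0 for all 3 numbers in both panels, and number 3 (open triangles) lies nearest to 0 for each of these 5. Mdm2 also lies above 0 for all 3 numbers in both panels, but its number 3 is the farthest from 0 in ΔC cells and not the nearest in WT cells.

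Counted over the members, treated and untreated arrays did not overlap for 5 of 10 genes in ΔC cells, 3 higher (Cdkn1a, Plk2 and Aen) and 2 lower (Zmat3 and Sesn1), beside 17.7% of all genes, 8.79% higher and 8.91% lower. In WT cells they did not overlap for 6 of 10, 3 higher (Cdkn1a, Plk2 and Mdm2) and 3 lower (Zmat3, Ccng1 and Sesn1), beside 30.6% of all genes, 12.0% higher and 18.6% lower. Their median change was 0.13 in ΔC cells and 0.07 in WT cells, against -0.05 and -0.14 over all genes. With the replicate block 0 members in ΔC and 4 in WT cells were called, beside 2.03% and 8.29% of all genes, and without the arrays numbered 3 it was 6 and 7, beside 13.1% and 34.1%. At an unadjusted p under 0.05, 3 members in ΔC and 7 in WT cells passed, beside 10.9% and 26.2% of all genes. The members were chosen with earlier results of these data known. These counts, and those between the genotypes below, are thus a description and not a test.

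Between the genotypes no member passed the test. After poly(I:C), 0 of 10 members were called between ΔC and WT cells, beside 20.9% of all genes (11.9% higher and 9.04% lower in ΔC cells). In untreated cells it was 0 of 10, beside 21.2% (10.9% higher and 10.2% lower). The median over the members was 0.03 after poly(I:C) and 0.01 in untreated cells, against 0.01 and -0.06 over all genes. At an unadjusted p under 0.05 the counts were 1 and 2, beside 34.5% and 35.0% of all genes. The groups did not overlap for 1 member after poly(I:C), Aen, which was higher in ΔC cells (0.19 ± 0.18, limma adjusted p = 0.491), beside 40.6% of all genes, 21.7% higher and 18.9% lower. In untreated cells this held for Ccng1 alone, lower in ΔC cells (-0.49 ± 0.20, adjusted p = 0.109), beside 37.2%, 17.6% higher and 19.6% lower. With the replicate block 0 members after poly(I:C) and 1 in untreated cells were called, beside 25.8% and 27.3% of all genes, and without the arrays numbered 3 it was 1 (Zmat3) and 4 (Aen, Ccng1, Phlda3 and Trp53inp1), beside 37.7% and 36.4%.

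After poly(I:C), the largest value between the genotypes was that of Zmat3, 0.55 ± 0.20 higher in ΔC cells (limma adjusted p = 0.0747), which passed the test without treated WT array 3 (0.82, adjusted p = 0.000807) and without all arrays numbered 3 (0.76, adjusted p = 0.00112). Cdkn1a differed by -0.32 ± 0.32 (adjusted p = 0.519). In untreated cells the largest value was that of Trp53inp1, 1.16 ± 0.54 (adjusted p = 0.161), which passed with the replicate block (adjusted p = 0.0367) and, at 0.82, without the arrays numbered 3 (adjusted p = 0.0216). Its second probe differed by -0.04 ± 0.18, so the 2 probes of this gene did not give the same difference. Aen was 0.43 ± 0.18 higher in untreated ΔC cells (adjusted p = 0.113), which passed without untreated WT array 3 (0.62, adjusted p = 0.0239) and with quantile normalization (0.61, adjusted p = 0.0291).

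**Figure D4:**
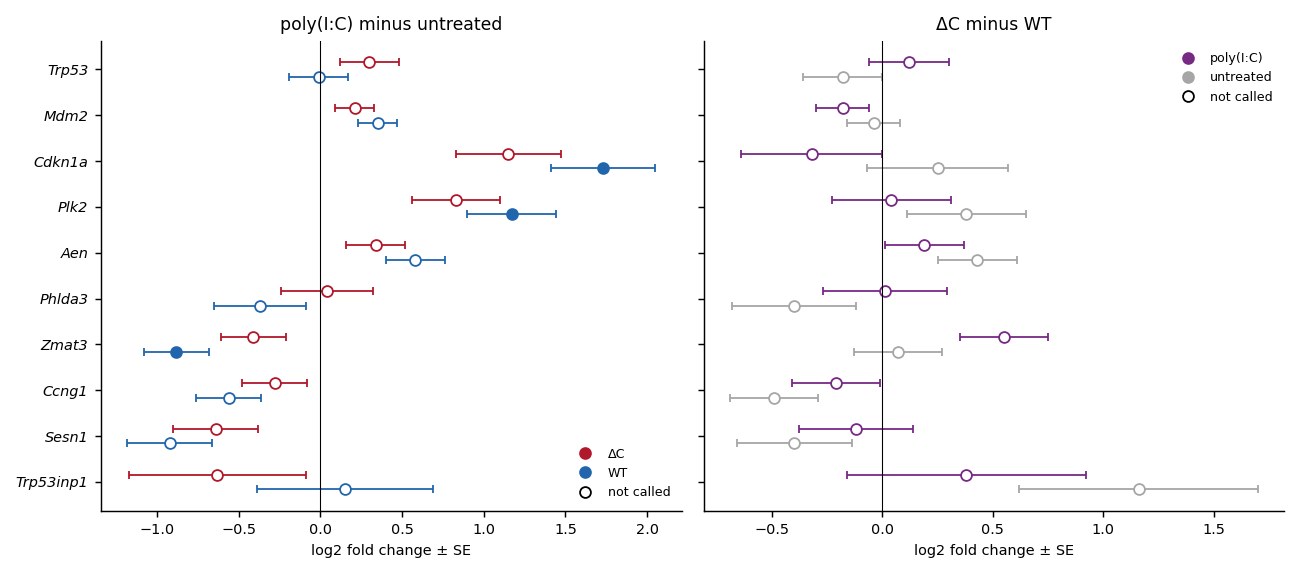
Log2 fold change with its SE (x axis) for the 10 genes down the page, poly(I:C) minus untreated in ΔC and WT cells (left) and ΔC minus WT with and without poly(I:C) (right); filled points passed the test over all genes. On the left only Cdkn1a (1.73), Plk2 (1.17) and Zmat3 (-0.88) in WT cells are filled, and on the right no point is.

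Whether the response itself differed between the genotypes was tested directly, as the ΔC response minus the WT response. No member was called, beside 0.0194% of all genes, which is 3 genes of 15445 (0.00647% with the higher value in ΔC cells and 0.0129% with the lower), and none had an unadjusted p under 0.05, beside 5.41% of all genes. The differences were -0.58 ± 0.45 for Cdkn1a, -0.34 ± 0.38 for Plk2 and 0.48 ± 0.28 for Zmat3 on the log2 scale (SE, limma adjusted p = 0.987 for each). The smaller values in ΔC cells were thus not shown to differ from those in WT cells. Zmat3 passed this test without treated WT array 3 (0.75, adjusted p = 0.0445) and without all arrays numbered 3 (0.70, adjusted p = 0.0402, beside 2.94% of all genes).

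Of 15 genes whose proteins act on p53, none was called with poly(I:C) in ΔC cells (median 0.01), beside 1.84% of all genes. In WT cells 1 fell (median -0.02), Ppp1r13l (iASPP, an inhibitor of p53), beside 6.77% of all genes called. It read 2.56, 2.82 and 2.80 in poly(I:C)-treated and 2.50, 2.83 and 2.58 in untreated ΔC cells. In WT cells it read 1.83, 1.90 and 2.04 with poly(I:C), against 2.53, 2.51 and 2.58 without. Treated WT arrays were thus below those of all 3 other groups, with a fall of -0.62 ± 0.12 in WT cells (limma adjusted p = 0.016) and a level 0.80 ± 0.12 higher in treated ΔC than in treated WT cells (adjusted p = 0.0017), although the difference between the responses did not pass the test (0.71 ± 0.17, adjusted p = 0.369). Those 3 values were, without the arrays numbered 3, -0.66 (adjusted p = 0.0192), 0.82 (adjusted p = 0.00714) and 0.69 (adjusted p = 0.172). Chek2, a checkpoint kinase that phosphorylates p53, was lower in untreated ΔC than in untreated WT cells (-0.88 ± 0.24, adjusted p = 0.0274). Usp7, which removes ubiquitin from p53 and Mdm2, was lower in ΔC cells with poly(I:C) (-0.37, adjusted p = 0.0407) and without (-0.35, adjusted p = 0.049), so 1 regulator was higher and 1 lower in treated and 2 were lower in untreated ΔC cells, beside 20.9% and 21.2% of all genes called. Mdm4, the partner of Mdm2, had values of -0.09 in ΔC and -0.12 in WT cells for poly(I:C) against untreated, and Cdkn2a, the gene of the Mdm2 inhibitor ARF and of p16, had 0.21 and 0.03, none of them past the test. A second Mdm4 probe gave 0.38 in ΔC (limma adjusted p = 0.614) and 0.45 in WT cells (adjusted p = 0.233), the opposite sign. A second Cdkn2a probe gave larger values, 0.94 ± 0.29 in ΔC (adjusted p = 0.227) and 0.78 ± 0.29 in WT cells (adjusted p = 0.157), also not past the test. Of 23 alternatives, 8 ended the WT call of Ppp1r13l (adjusted p up to 0.3, among them untreated or treated WT array 1 or 2 left out and median scaling) and 8 that of Chek2 (up to 0.155, among them untreated WT array 1 or 2 or any untreated ΔC array left out). Usp7 lost its calls under 16 alternatives after poly(I:C) and 19 in untreated cells (adjusted p up to 0.303 and 0.639), most single arrays left out among them.

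Among 25 other known p53 targets, 23 could be tested, with median changes of 0.06 in ΔC and 0.00 in WT cells. In ΔC cells 1 rose, Btg2, an antiproliferative gene, and in WT cells 4 rose (Fas, Gadd45a, Btg2 and Rap2b) and none fell, beside 1.84% and 6.77% of all genes called. In the fit without the arrays numbered 3, 5 rose and 1 fell in ΔC cells and 7 rose and 5 fell in WT cells, beside 13.1% and 34.1%. Btg2 read 0.16, 0.59 and 0.23 in poly(I:C)-treated ΔC cells, against -1.21, -1.16 and -0.86 in untreated ΔC cells, a rise of 1.40 ± 0.19 (limma adjusted p = 0.0029). It read -0.15, -0.26 and 0.10 in treated WT cells, against -1.97, -2.14 and -1.56 in untreated WT cells, a rise of 1.79 ± 0.19 (adjusted p = 0.000314). No treated array overlapped an untreated one, and without the arrays numbered 3 the rises were 1.56 in ΔC (adjusted p = 0.00346) and 1.85 in WT cells (adjusted p = 0.000716).

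Gadd45a, a growth-arrest gene induced by p53 and by eIF2α stress signalling, had a value of 1.10 in ΔC cells (limma adjusted p = 0.113) and rose by 1.85 ± 0.28 in WT cells (adjusted p = 0.00353). Its levels were 1.85, 2.19 and 1.93 in treated and 0.62, 0.83 and 1.22 in untreated ΔC cells, and 2.58, 2.47 and 1.80 in treated and 0.12, 0.16 and 1.02 in untreated WT cells. The death receptor gene Fas read -0.12, -0.34 and 0.93 with poly(I:C) and -0.82, -1.38 and -0.11 without in ΔC cells, so those groups overlapped. In WT cells it rose by 2.37 ± 0.43 (adjusted p = 0.00962), with levels of 1.46, 1.25 and 0.27 in treated cells, against -1.17, -1.23 and -1.73 in untreated cells. Gadd45a, with the arrays numbered 3 left out, rose by 1.29 in ΔC (adjusted p = 0.00488) and 2.39 in WT cells (adjusted p = 0.000187), and Fas by 0.87 (adjusted p = 0.0422) and 2.56 (adjusted p = 0.000528). The test of the difference between the responses was passed by none of the 23 genes, Fas included (-1.45 ± 0.61, adjusted p = 0.875), but Fas passed it without the arrays numbered 3 (-1.69, adjusted p = 0.0404). The WT call of Fas was lost without treated WT array 1 or 2 (adjusted p = 0.0548 and 0.0525) and with scan day as a block (0.0773). With slide as a block the adjusted p was 0.158 for Fas, 0.109 for Gadd45a and 0.0803 for Btg2 in ΔC cells. With the authors' table, whose column for treated ΔC array 1 did not follow that array's scanner values, it was 0.0568, 0.0925 and 0.783, and without that column it was 0.016, 0.00709 and 0.00675.

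Some of the 23 targets differed between the genotypes, in both directions. After poly(I:C), 6 were higher and 2 lower in ΔC cells, and untreated, 5 were higher and 3 lower, with medians of 0.19 and 0.24, beside 20.9% and 21.2% of all genes called. Perp, a membrane protein of desmosomes that p53 also induces, read 4.32, 4.43 and 3.46 in poly(I:C)-treated ΔC cells, against 0.01, 0.24 and 1.11 in poly(I:C)-treated WT cells (3.62 ± 0.36, limma adjusted p = 0.000125). Gdf15, a secreted stress hormone, read -3.51, -4.06 and -2.06 in poly(I:C)-treated ΔC cells, against 1.64, 1.62 and 0.98 in poly(I:C)-treated WT cells (-4.62 ± 0.62, adjusted p = 0.000813). Both also passed in untreated cells, at 3.02 and -3.58. With the arrays numbered 3 left out, Perp differed by 4.25 in treated (adjusted p = 2.58e-05) and 3.43 in untreated cells (adjusted p = 4.48e-05), and Gdf15 by -5.41 (adjusted p = 6.95e-05) and -3.87 (adjusted p = 0.000235). Perp is known from epithelia, and of the epithelial markers Epcam and Cdh1 were above background in ΔC cells only. Krt18 was above background in both genotypes, with the higher mean levels in ΔC cells but its highest arrays in WT cells. Krt8 had the higher mean levels in WT cells. Their part in the difference in Perp was not tested.

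Relatives of the members gave a set of 15 genes, some of them also in the lists above. Their medians were -0.01 in ΔC and -0.06 in WT cells. None was called with poly(I:C) in ΔC cells, beside 1.84% of all genes. In WT cells 2 rose, beside 6.77%: Phlda1 (2.32 ± 0.50, limma adjusted p = 0.0218) and the interferon-induced nuclease Isg20, a relative of Aen (1.71 ± 0.37, adjusted p = 0.0228). Between the genotypes 4 were higher and 1 lower in treated ΔC cells and 4 were higher in untreated ΔC cells, beside 20.9% and 21.2% of all genes. Cdkn1c, the gene of the p21 relative p57, read 1.40, 1.50 and 2.29 in treated ΔC cells, against -2.30, -2.86 and -1.62 in treated WT cells. It also read 2.35, 1.69 and 2.33 in untreated ΔC cells, against -1.97, -2.53 and -1.68 in untreated WT cells, so that all 6 ΔC arrays lay above all 6 WT arrays (3.99 ± 0.36, adjusted p = 7.48e-05, and 4.19 ± 0.36, adjusted p = 4.55e-05). The differences were 4.03 (adjusted p = 0.000295) and 4.28 (adjusted p = 0.000264) without the arrays numbered 3. The WT calls of Phlda1 and Isg20 were lost under 7 of 23 alternatives each (adjusted p up to 0.251 and 0.116), among them untreated or treated WT array 1 or 2 left out. For Cdkn1a neither difference between the genotypes passed the test.

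The last lists hold 11 genes whose proteins p21 binds, namely cyclins, kinases and Pcna, and 12 cell cycle genes. With all arrays, none of the 11 was called with poly(I:C) in either genotype (medians -0.08 in ΔC and 0.01 in WT cells), beside 1.84% and 6.77% of all genes. Of 12 cell cycle genes that are lowered through p21 and the DREAM repressor, none was called either, with a median of 0.02 in ΔC and -0.28 in WT cells, against -0.05 and -0.14 over all genes. Without the arrays numbered 3, none of these 12 was called in ΔC cells, beside 13.1% of all genes in that fit, and 8 fell and 1 rose in WT cells, beside 34.1% called (21.1% fell). Of the 11, 1 fell in ΔC cells and 3 rose and 2 fell in WT cells in that fit. Between the genotypes, Ccnd2 (cyclin D2) was lower in ΔC cells with poly(I:C) (-2.28 ± 0.31, limma adjusted p = 0.000897) and without (-1.78 ± 0.31, adjusted p = 0.0034), and Cdk2 was higher with poly(I:C) (0.84 ± 0.19, adjusted p = 0.0128). Of the 12 lowered genes, Birc5 (-0.51, adjusted p = 0.0305) and Aurka (-0.50, adjusted p = 0.0445) were lower in untreated ΔC cells. Those last calls were lost under 12 and 18 of 23 alternatives (adjusted p up to 0.413 and 0.427) and that of Cdk2 under 7 (up to 0.154), single arrays left out among them.

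**Figure D5:**
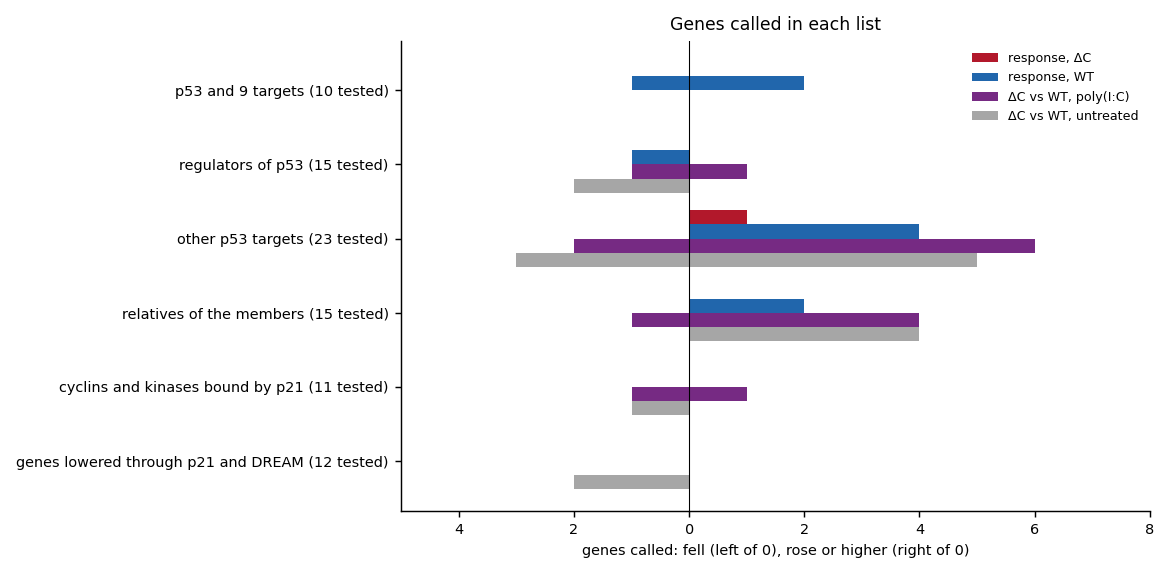
Number of genes called in each list (x axis, fell or lower to the left of 0 and rose or higher to the right) for the response to poly(I:C) in ΔC and WT cells and for ΔC against WT with and without poly(I:C). The 10 members have 3 calls, all for the WT response, and the 23 other p53 targets have up to 6 genes higher in ΔC cells. The list named for cyclins and kinases also holds Pcna.

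The genes most like Cdkn1a in level over the 12 arrays were Gadd45a (Pearson r = 0.979), Arid5a (0.967) and Snhg17 (0.967). They were sought among the 13678 genes well above background on all arrays, from which the members, clones and predicted genes were then left out. Arid5a and Snhg17 passed the test with poly(I:C) in ΔC cells (1.96, limma adjusted p = 0.00715, and 1.27, adjusted p = 0.0135) and in WT cells (2.73, adjusted p = 0.000433, and 1.65, adjusted p = 0.0013). For Trp53 the most like genes were Rbm38 (0.886), M6pr (0.865) and Rpl18 (0.852), none of which passed the test in any of the 4 comparisons between groups. These coefficients describe 12 arrays in 4 groups and carry no p.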

How the data were processed

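Total RNA of 12 samples was read on Agilent single-colour arrays. The deposited scanner intensities came from Feature Extraction 10.7.3.1, already background-corrected, per the file headers. A table of log2 values that the authors deposited, whose columns all share 1 distribution, was an alternative; its column for poly(I:C)-treated ΔC array 1 did not follow that array's scanner values (Spearman 0.9097, against 1 for the others). Spots of a probe, outliers left out, were averaged as log2 values minus the array's 75th percentile over 55681 probes, of which RefSeq accessions named 27235. A gene was represented by its brightest probe and tested where a probe was well above background in all 3 samples of some group. limma 3.58.1 (R 4.3.3) fitted the 4 groups together (8 residual degrees of freedom, two-sided, Benjamini-Hochberg over 15445 genes), and was tested on simulated data with independent arrays. For the ΔC response it called 53% of 100 genes given a log2 change of 1 and 88% of 100 given 2, with 9 false calls. A change of about 1 can thus go uncalled.

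Same-numbered arrays deviated together (12 correlations of 0.115 to 0.651), and the labels describe 3 experiments, so the number was tried as a block. Other alternatives were scaling by the median, quantile normalization, normexp with offset 50 on median signals (the files hold no mean signals, which had been planned), no filter, the mean of a gene's probes, a block for slide or for scan day, and each array left out. Leaving out the arrays numbered 3, or the mismatched column, was added after seeing the data. The members and lists were chosen with earlier results of these data known. Genes were named by rule: the members, Ppp1r15a, Mdm4, Cdkn2a, at most 2 rises and 2 falls per list and comparison, and the 3 genes most like Cdkn1a or Trp53. Btg2 and Rap2b in WT cells were named after their values were seen, since the count there was 4.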

Additional observations from a re-analysis of the deposited data

How the results depend on the processing

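Of the 10 members, 3 were called for the WT response. That count was 0 when slide was a block, 0 from the authors' table, 3 from that table without its mismatched column, 1 when scan day was (Cdkn1a), 7 without the 4 arrays numbered 3, and 0 to 6 with each array left out. For the ΔC response it was 6 without the arrays numbered 3. Between untreated genotypes it was 1 with quantile normalization, 1 with the replicate block, 1 with the authors' table without its mismatched column, 4 without the arrays numbered 3, and 0 to 1 with each array left out. Between treated genotypes, and for the difference between the responses, it was 1 without the arrays numbered 3 and 0 to 1 with each array left out. Some values close to 0 changed sign. The WT change of Trp53 was 0.06 with median scaling, 0.00067 with quantile normalization, 0.00074 with normexp, 0.08 with a slide block, 0.16 with a scan day block, 0.00037 with the authors' table, with or without its mismatched column, 0.24 without the arrays numbered 3, and -0.19 to 0.18 with each array left out. That of Trp53inp1 was -0.0091 with normexp, -0.09 with the mean of its probes and without the arrays numbered 3, and -0.51 to 0.57 with each array left out. Between treated genotypes, Cdkn1a was 0.13 with the mean of its probes, Aen -0.01 and Usp7 0.09 with the authors' table, and Trp53inp1 -0.02 without the arrays numbered 3 and -0.04 to 0.62 with each array left out. The causes were not tested. The replicate block moved Mdm2 (WT response) and Trp53inp1 (untreated genotypes) past the threshold and changed no other call among 66 single results. Median scaling moved the median of all genes from -0.05 to -0.19 for the ΔC response and from 0.01 to -0.14 between treated genotypes, and turned the WT split from 809 up and 237 down to 583 and 14. Arrays, 3 per group, limit the precision.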
